A study of Arabidopsis thaliana with 9 samples.

Results

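The large subunit of the cytosolic ribosome of Arabidopsis thaliana, the 60S subunit, is built from ribosomal RNA and a set of proteins that are mostly encoded by small families of nuclear paralogues. A list of 42 such genes was followed here in seedlings of the accessions Col and C24 and of their F1 hybrid. Members were the genes on the list that were named by a probe set naming exactly 1 gene. These were 30 of the 42, of 13286 genes named in this way in all, and each had a single probe set. Of the 30, 29 lay above the low-signal filter and were tested, and they cover 14 of the 16 protein families on the list. The gene left out by the filter was AT3G48960 of the L13 family, with signals of 2.19 to 9.17 in the Col arrays, 5.17 to 6.28 in the C24 arrays and 6.39 to 9.64 in those of F1. The 12 listed genes with no such probe set were AT1G74050 and AT1G74060 (L6), AT4G36130 (L8), AT1G33120 and AT1G33140 (L9), AT1G26910 and AT1G66580 (L10), AT2G42740, AT3G58700, AT4G18730 and AT5G45775 (L11) and AT3G49010 (L13).

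Each ribosome carries 1 copy of nearly every ribosomal protein, so a cell that grows has to make these proteins in matched amounts, and their genes are among the most strongly expressed of a young leaf. Proteins of the large subunit line the tunnel through which the new chain leaves, form the stalks that bind elongation factors and move spent tRNA out, and surround the centre that joins amino acids. In Arabidopsis, loss of single large subunit genes often changes leaf shape and growth, and paralogues of a family can differ in where and how strongly they are used. Family names are given here by the older plant convention, as general knowledge of these loci.

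RNA was taken from whole seedlings with the roots left off, at an age that the labels give as 10 DAS. They were grown at 22 degrees C with a photoperiod of 16 h and 8 h. The groups were Col, C24 and the F1 hybrid of Col and C24, each untreated, with 3 biological replicates and 1 array of 1 colour per replicate, 9 arrays in all. The labels do not say which accession was the mother of the hybrid, nor how plants were grouped into a replicate, so p-values measure the spread between these samples. Precision is limited by having 3 arrays in each group.

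Signals are quantile-normalized intensities on a linear scale, and differences are in log2 with their standard error from 1 limma fit over 15922 tested probe sets. A gene was called where its Benjamini-Hochberg adjusted p over all tested probe sets was under 0.05. Across probe sets, arrays of a group correlated at 0.94 to 0.97 and arrays of different groups at 0.90 to 0.97. The leaf gene RCA, which encodes Rubisco activase, had mean signals of 5817 ± 470.1 (Col), 5583 ± 244 (C24) and 5651 ± 204 (F1; SD, n = 3), and it was the only one of 10 shoot markers named by a probe set. Of 10 root markers 4 were named and 2 tested. Their summed signal was 274 to 350.2 in Col, 1040 to 1856 in C24 and 564 to 841 in F1, nearly all of it from PYK10. The other named root markers had lower means in C24 than in Col. EXPA18 went from 19.9 ± 6.69 to 9.60 ± 3.00 (log2 -1.04 ± 0.36, adjusted p = 0.122), with all C24 arrays below all Col arrays. EXPA7 went from 8.21 ± 5.46 to 2.32 ± 1.14 and GH9C1 from 9.14 ± 4.64 to 6.06 ± 1.33, both under the filter level and with overlapping arrays. The ratio of the 3′ to the 5′ GAPDH control ran from 1.02 to 1.35 in Col, 1.01 to 1.36 in C24 and 1.07 to 1.17 in F1, and that of the ubiquitin control from 1.44 to 2.18, 1.17 to 2.47 and 1.31 to 1.46. The signal of the 25S rRNA control did not overlap between the parents. It was 503, 2464 and 1426 in Col, 90.7, 217 and 44.9 in C24 and 1380, 41.4 and 1807 in F1. The median log2 signal of the arrays as deposited was 5.66 to 5.78 in Col, 5.59 on each C24 array and 5.65 to 5.82 in F1. The part of any of these measures in the results below was not tested.

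The comparison of C24 with Col asks whether the parents differ in their large subunit genes. Most of these genes had somewhat more signal in C24. Of the 29 tested genes, 26 had a positive log2 difference, where 53.9% of all tested probe sets did, and the median was 0.17 with quartiles of 0.10 and 0.23, against a median of 0.03 over all tested probe sets. In the limma fit 3 were called higher in C24 and 0 lower, where 3.56% of all tested probe sets were called higher and 4.91% lower. At an unadjusted p under 0.05, 5 were higher and 0 lower, where 1759 and 1688 of the 15922 tested probe sets were. In seedlings with the roots left off, a different share of cells of a type and a different amount of RNA per cell cannot be told apart.

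**Figure D1:**
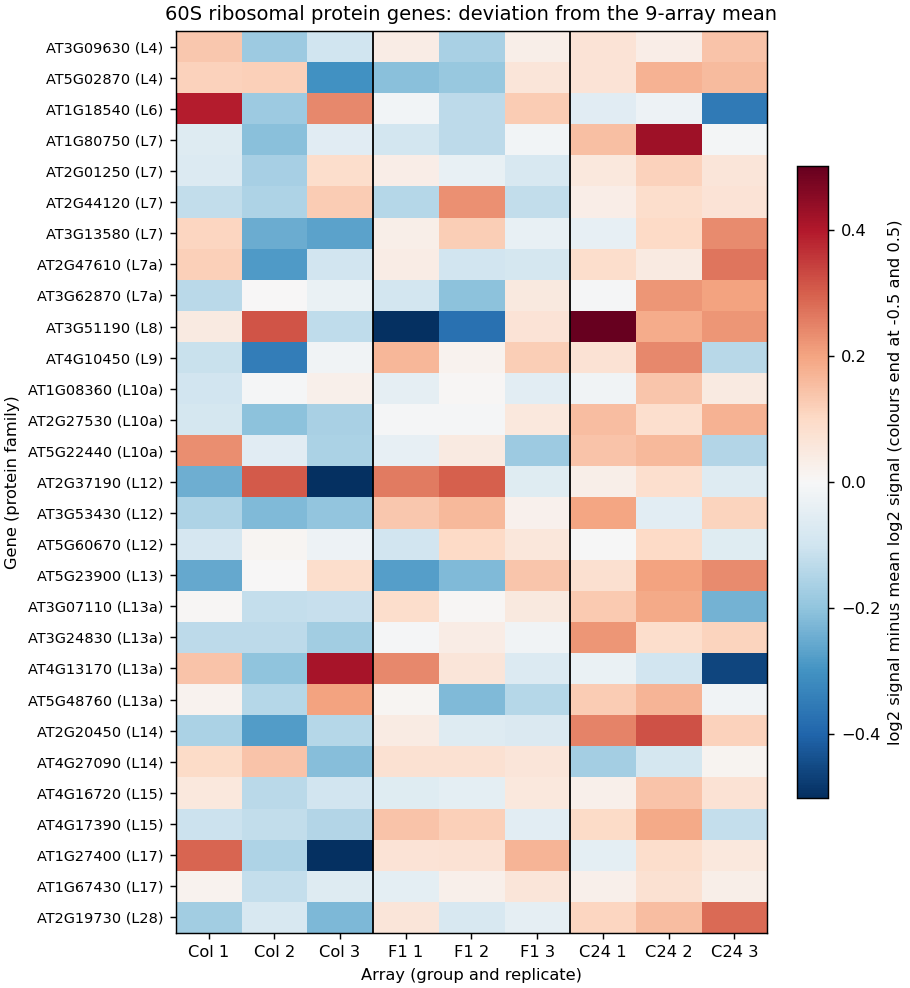
Log2 signal of each of the 29 tested genes (rows, with protein family) on each of the 9 arrays (columns), minus the gene's mean over the 9 arrays. Red cells lie above the mean and blue cells below it. Over the 29 genes the median deviation was below 0 on each Col array, from -0.14 to -0.06, near 0 on each F1 array and above 0 on each C24 array, from 0.06 to 0.12.

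The higher signal was seen on each C24 array. On the C24 arrays 21, 25 and 19 of the 29 genes lay above their 9-array mean, on the F1 arrays 15 each, and on the Col arrays 14, 7 and 7. The median deviation from the 9-array mean was 0.07, 0.12 and 0.06 on the C24 arrays, -0.06, -0.14 and -0.10 on the Col arrays and 0.01, 0.01 and 0.02 on the F1 arrays. The groups did not overlap in this median.

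AT2G20450 encodes a protein of the L14 family, which plants share with yeast and animals and which bacterial ribosomes lack. Its signals were 876, 805 and 887 in Col, 1163, 1219 and 1059 in C24 and 1008, 935 and 930.3 in F1. The 3 groups did not overlap, with F1 between the parents. The means were 856 ± 44.3 in Col and 1147 ± 81.1 in C24, a 1.34-fold difference (log2 0.42 ± 0.10, adjusted p = 0.0334), the highest of the 29 genes.

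AT2G19730 encodes L28, a protein of plant and animal ribosomes that budding yeast lacks. Loss of this gene enhances the leaf polarity defect of asymmetric leaves mutants. Its signals were 2727, 2904 and 2629 in Col, 3309.8, 3418 and 3741 in C24 and 3205, 2904 and 2982 in F1. All C24 arrays were above all Col and F1 arrays, while 1 F1 array was level with the highest Col array. C24 was 1.27-fold higher than Col (log2 0.34 ± 0.08, adjusted p = 0.0311). In the annotation this gene lies beside AT2G19720, AT2G19740 and AT2G19750, which encode ribosomal proteins as well. AT2G19740 (L31) was the only one of them named by a probe set, at 335 ± 33.3 in Col and 409 ± 71.5 in C24 (adjusted p = 0.425). AT4G29410, an L28 gene that is not on the list of members, did not share the higher signal of AT2G19730. It was at 1192, 1129 and 901 in Col and 916, 1102 and 930 in C24. Its groups overlapped (log2 -0.12 ± 0.14, adjusted p = 0.692 in limma).

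AT3G24830 belongs to the L13a family, known in mammals also for a role in translation control outside the ribosome. Its signals were 2229.9, 2233 and 2168 in Col, 2844, 2593 and 2639 in C24 and 2431, 2507 and 2414 in F1. The groups did not overlap and F1 lay between the parents. C24 was 1.22-fold higher than Col (log2 0.28 ± 0.08, adjusted p = 0.0473).

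These 3 calls were close to the threshold. Leaving out any Col array, or C24 replicate 1 or 2, left 0 of the 29 called, and leaving out any other array left 1 or 2. With no variance trend in the fit 0 were called. Over 15 alternatives the adjusted p ran from 0.0232 to 0.125 for AT2G20450, from 0.0273 to 0.151 for AT2G19730 and from 0.0409 to 0.201 for AT3G24830. It was under 0.05 in 7, 5 and 1 of the 15 for these genes in turn. With the deposited scaling or a common median only AT2G20450 kept its call, at log2 differences of 0.51 and 0.64. With no low-signal filter AT2G20450 again kept its call alone of the 3, and AT2G27530 (L10a) gained one.

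**Figure D2:**
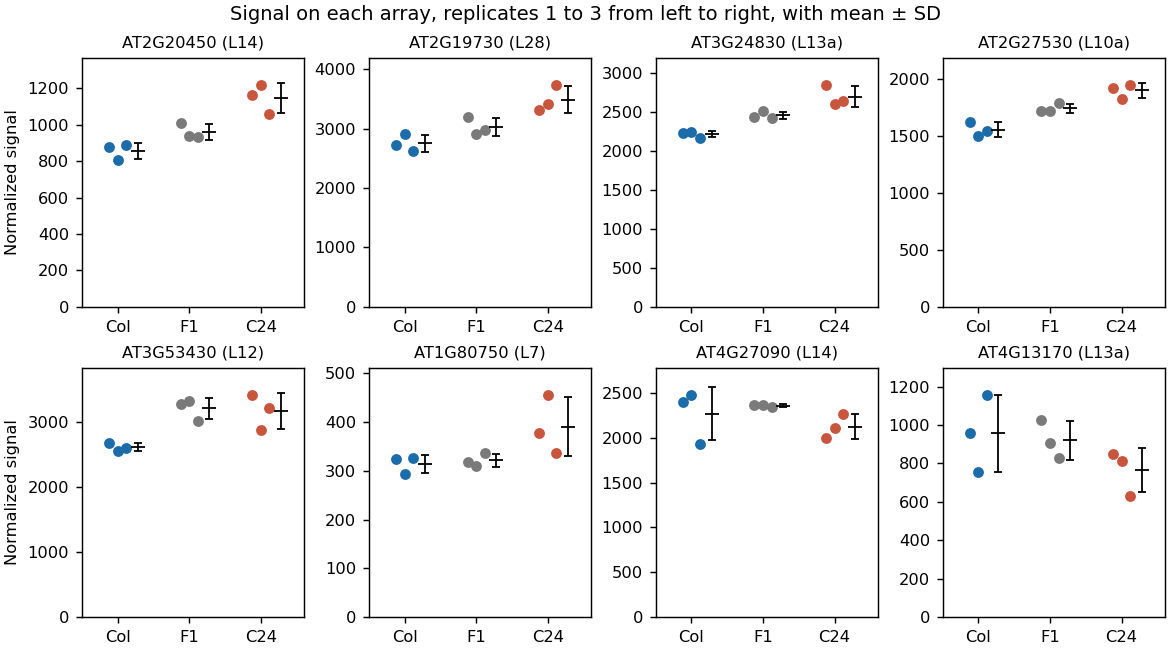
Normalized signal of 8 genes on each array (points, replicates 1 to 3 from left to right in each group), with the mean and SD of the group as a bar. In AT2G20450, AT2G19730 and AT3G24830 every C24 array lies above every Col array, and in AT4G27090 and AT4G13170 the groups overlap.

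Other genes had parents that did not overlap but gave no call. AT2G27530, also called PGY1 (PIGGYBACK1), encodes an L10a protein of the stalk that helps move tRNA out of the ribosome, and its mutants have altered leaf polarity. Its signals were 1625, 1497 and 1544 in Col, 1923, 1829 and 1950.3 in C24 and 1722, 1722 and 1791 in F1. The 3 groups did not overlap. The log2 difference between C24 and Col was 0.29 ± 0.08 (adjusted p = 0.0625 in limma), and over 15 alternatives the adjusted p ran from 0.0415, with no low-signal filter, to 0.193.

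AT3G53430 encodes an L12 protein at the base of the stalk where elongation factors bind. It was at 2684, 2562 and 2601 in Col, 3425, 2875 and 3225 in C24 and 3279.9, 3337 and 3027 in F1. Both C24 and F1 lay above Col on every array and overlapped each other. Its log2 difference between the parents was 0.28 ± 0.09 (adjusted p = 0.0846).

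AT1G80750 of the L7 family was at 325, 293 and 326 in Col, 377, 456 and 337 in C24 and 318, 310.4 and 336 in F1. The F1 arrays overlapped those of Col and lay below all C24 arrays. The log2 difference of C24 from Col was 0.30 ± 0.14 (adjusted p = 0.257), and 0.18 without C24 replicate 2. These 3 genes, the 3 called ones and AT1G67430 of the L17 family, at 2935 ± 141 in Col and 3142 ± 64.6 in C24, were the 7 genes whose C24 arrays all lay above all Col arrays. No gene was separated the other way. Over all tested probe sets 13.9% were separated in the first direction and 12.3% in the second.

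Proteins of the L4 and L17 families line the narrow part of the exit tunnel. The L4 genes AT3G09630 and AT5G02870, whose mutants have altered leaf shape, had small differences. AT3G09630 was at 2361, 1898 and 2011 in Col and 2256, 2205 and 2375 in C24 (log2 0.13 ± 0.10, adjusted p = 0.541). AT5G02870 was at 2849.7, 2859 and 2132 in Col and 2758, 2962 and 2934 in C24 (log2 0.15 ± 0.13, adjusted p = 0.55). In both the groups overlapped, and with 1 array left out the differences ran from 0.06 to 0.22 for AT3G09630 (lowest without Col replicate 2) and from 0.016 to 0.23 for AT5G02870 (lowest without Col replicate 3).

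Of the remaining tested genes, those of the L7, L7a, L9, L10a, L12, L13, L13a, L15 and L17 families had log2 differences of 0.05 to 0.23, and 0 of them were called. The gene of L8, a protein close to the centre that joins amino acids, was AT3G51190, at 15.5 to 21.1 in Col and 19.3 to 24.5 in C24, near the filter level of 11.1. No other tested gene had a mean signal under 342 over the 9 arrays, and 25 of the 29 were at 500 or above on every array.

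The negative differences were those of AT4G13170 (L13a), AT1G18540 (L6) and AT4G27090 (L14), at -0.31 ± 0.18, -0.30 ± 0.16 and -0.09 ± 0.11. None of them passed the test in limma (adjusted p = 0.355, 0.318 and 0.709). With 1 array left out the difference of AT4G13170 ran from -0.48 (without Col replicate 2) to -0.17 (without Col replicate 3) and that of AT4G27090 from -0.20 (without Col replicate 3) to -0.023 (without Col replicate 2). AT1G18540 was at 2209, 1485 and 1985 in Col and 1616, 1654 and 1318 in C24, with 1 Col array inside the C24 range. AT4G27090 had a positive difference with the deposited scaling (0.03) and with a common median (0.17). The array was designed on the Col genome, so for these genes a probe mismatch in C24 and a lower transcript level cannot be told apart.

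**Figure D3:**
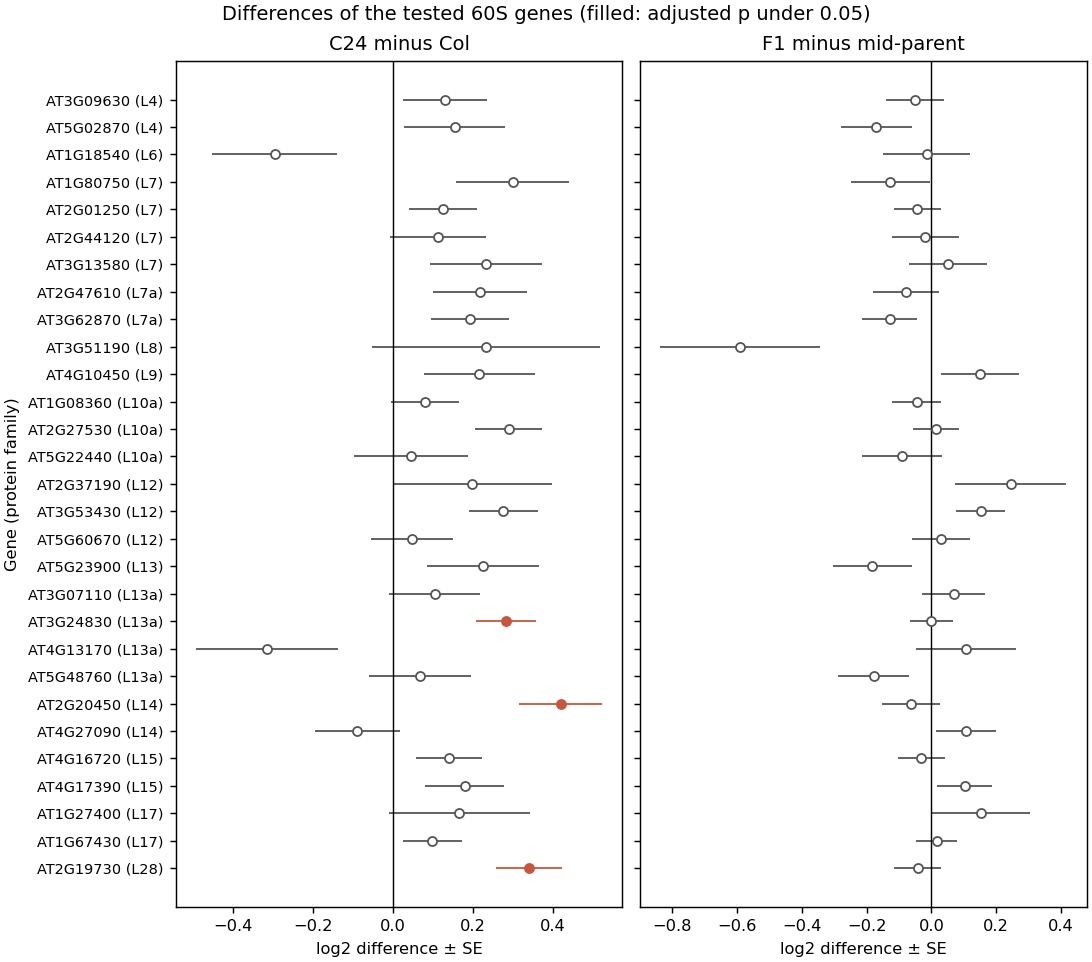
Log2 difference of C24 from Col (left) and of F1 from the mid-parent value (right) for the 29 tested genes, with the standard error of the limma fit as a bar. Filled points are called genes. On the left 26 of 29 points lie above 0 and 3 are filled. On the right 13 lie above 0 and none is filled.

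Paralogues were then compared within each array, since a shift that all ribosomal genes of an array share cancels in their ratio. The 9 families with at least a pair of tested genes gave 23 pairs. In 19 of them the log2 ratio moved by less than 0.25 between Col and C24, and the median size of the move was 0.15. In 4 pairs the ratios of the Col and C24 arrays did not overlap. Such moves were not computed for pairs of other genes, so these counts are not read as a result about these paralogues. A two-sided exact permutation test of 3 arrays against 3 cannot go below p = 0.1, and each of these 4 pairs had this smallest p. With 23 pairs computed and no adjustment able to pass, none is called different. Paralogues resemble each other in sequence, and how far a probe set also binds the other transcripts of its family was not tested. A mismatch of C24 transcripts with probes designed on Col does not cancel in a ratio, and it was not tested either.

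The 2 widest moves were ratios of a called gene to a paralogue, so they rest partly on the same signals as the calls. In the L14 family the log2 ratio of AT2G20450 to AT4G27090 was -1.45, -1.62 and -1.13 in Col, -0.78, -0.79 and -1.10 in C24 and -1.23, -1.34 and -1.33 in F1. The ratio was 0.51 higher in C24 than in Col, with the nearest arrays of both parents only a little apart, and F1 lay within the Col range. In the L13a family the log2 ratio of AT3G24830 to AT4G13170 was 1.22, 1.56 and 0.91 in Col, 1.75, 1.67 and 2.06 in C24 and 1.24, 1.47 and 1.54 in F1. It was 0.60 higher in C24, and again F1 lay within the Col range. AT4G13170 itself was at 958, 756 and 1157 in Col, 848, 813 and 632 in C24 and 1027, 906 and 827 in F1, and the parents overlapped. With the deposited scaling, the moves of these ratios were 0.48 and 0.67.

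The other non-overlapping pairs also contained AT4G13170. Its ratio to AT5G48760 was 0.38 lower in C24 than in Col, and the ratio of AT3G07110 to it was 0.42 higher. These 3 L13a pairs share a gene and so are not separate observations. AT3G07110 and AT5G48760 differed from each other by a move of 0.04. By contrast the L4 pair moved by -0.02, the L7a pair by 0.02, the L15 pair by -0.04 and the L17 pair by 0.07, with overlapping parents and exact permutation p of 0.6 to 1. These p-values do not show that the ratios are equal.

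**Figure D4:**
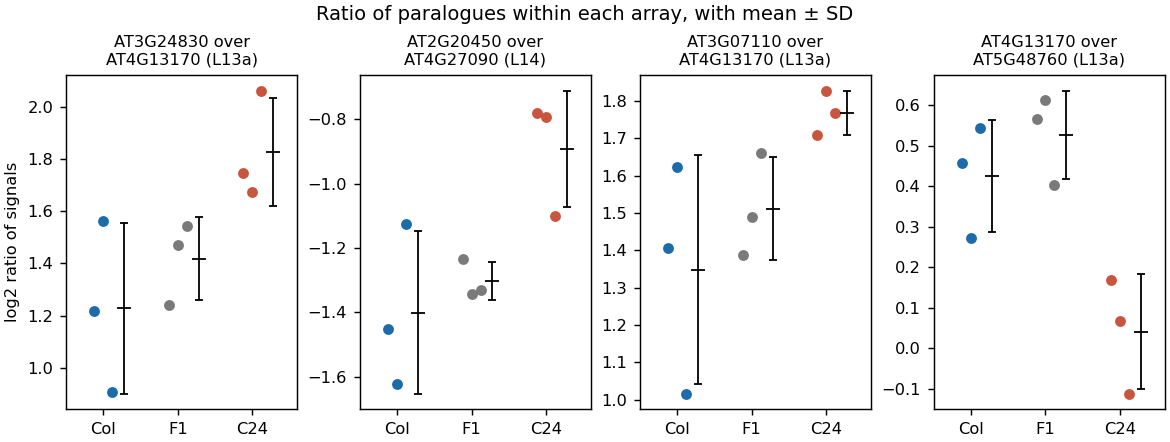
Log2 ratio of the signals of 2 paralogues on each array (points, replicates 1 to 3 from left to right), with the mean and SD of the group as a bar, for the 4 pairs in which Col and C24 do not overlap. Each panel has its own axis, and in each the F1 mean lies nearer to the Col mean than to the C24 mean.

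The F1 was compared with each parent and with the mid-parent value, the mean of the parents on the linear scale, which is the level that additive expression would give. These comparisons share their parental arrays. In limma 0 of the 29 genes were called against Col, where 0.408% of all tested probe sets were higher and 0.1% lower, and 0 were called against C24, where 1.7% were higher and 0.377% lower. At an unadjusted p under 0.05, 1 gene was higher than Col and 4 were lower than C24. Of the 15922 tested probe sets, 754 and 985 were. None of the 29 was lower than Col or higher than C24 in this way, where 667 and 1077 probe sets were. The median log2 difference was 0.04 from Col and -0.10 from C24.

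Against the mid-parent value 0 were called as well, where 0.00628% of all tested probe sets were higher and 0.0314% lower. Without adjustment, 0 genes were higher and 1 was lower at p under 0.05, where 333 and 470 of the 15922 tested probe sets were. The median difference was -0.02, and -0.02 over all tested probe sets, but with the deposited scaling it was -0.12 against 0.01 and with a common median -0.19 against -0.05. The F1 mean lay between the parents for 14 of the 29 genes, above both for 8 and below both for 7. Of the 15922 tested probe sets 48.3% also had an F1 mean between the parents, while 3782 had it above both and 4445 below both. With 0 at the Col signal and 1 at the C24 signal, F1 stood at 0.35 for AT2G20450, 0.38 for AT2G19730 and 0.50 for AT3G24830.

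All F1 arrays lay above the mid-parent value in 6 of the 29 genes and below it in 4. The share over all tested probe sets was not computed, so these counts are not read as a result about these genes. The 3 highest differences with all F1 arrays above the mid-parent value were in the L12 and L17 families. AT2G37190 (L12) was at 2792, 2875 and 2236 in F1, against 1969, 2884 and 1532 in Col and 2383, 2475 and 2233 in C24. The F1 arrays overlapped those of Col, which spread widely, and the log2 difference from the mid-parent value was 0.25 ± 0.17. AT1G27400 (L17) was at 1480.4, 1485 and 1585 in F1, within the Col range of 969 to 1725, with a difference of 0.15 ± 0.15. AT3G53430 had a difference of 0.15 ± 0.07, with F1 level with C24.

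Among the genes with all F1 arrays below it, AT5G48760 (L13a) was at 694, 593 and 625 in F1, against 699, 626 and 794 in Col and 755, 776 and 683 in C24, a difference of -0.18 ± 0.11. The F1 arrays overlapped those of both parents. AT1G80750 had a difference of -0.13 ± 0.12. AT3G51190 (L8) was at 9.30, 13.1 and 17.8 in F1, the lowest of them under the filter level, with a difference of -0.59 ± 0.25 and the only unadjusted p under 0.05. None of these 6 genes passed in limma, with an adjusted p of 0.995 for all but AT3G51190, at 0.991.

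How the arrays are scaled bears on these bright genes. With the deposited scaling the median difference of C24 from Col was 0.27, against -0.03 over all tested probe sets, and with a common median it was 0.41 against 0.10. Relative to all probe sets it was 0.13, 0.30 and 0.30 higher with the 3 scalings, and 26, 27 and 27 of the 29 genes were positive. A common median only shifts each deposited array by a constant. The values of 0.30 are therefore equal by construction and are not separate observations. The median F1 difference from the mid-parent value was 0.0040 above that of all probe sets with quantile normalization, and with the deposited scaling and the common median it was lower, at -0.13 and -0.14 relative to all probe sets. The F1 signal was above the mid-parent value for 13, 6 and 4 of the 29 genes with the 3 scalings. F1 replicate 3 stood apart with the last 2. Its median deviation was -0.23 and -0.38 with these scalings, where the other F1 arrays were at 0.01 to 0.06, and without it the F1 median was -0.04 and -0.05. After quantile normalization all 3 F1 arrays lay at 0.01 to 0.02.

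**Figure D5:**
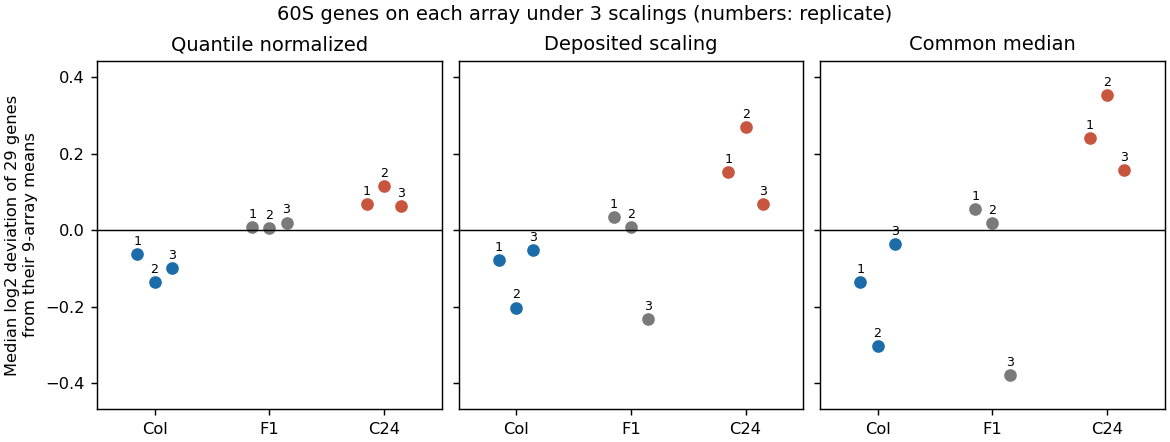
Median over the 29 genes of the log2 deviation from the gene's 9-array mean, for each array (points, with the replicate number) and each of 3 scalings (panels). All C24 arrays lie above all Col arrays in each panel, and F1 replicate 3 drops below the other F1 arrays with the deposited scaling and the common median.

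Other ribosomal protein genes were followed as further lists. Of 88 other 60S genes listed, 52 were named and 48 tested, with a median log2 difference of C24 from Col of 0.16, 36 of them positive, 3 called higher and 3 lower. Of 94 genes of the small subunit, the 40S subunit, 48 were named and 43 tested. Their median was 0.18, with 36 of them positive, 1 called higher and 0 lower. Over all tested probe sets 53.9% were positive, 3.56% were called higher and 4.91% lower. Against the mid-parent value the medians of these lists were -0.04 and -0.02, and 0 genes of either list were called in limma. At an unadjusted p under 0.05 there were 1 and 3. Of the 15922 tested probe sets, 333 were higher and 470 lower at that p. Whether the lists differ from each other was not tested.

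Calls in the other 60S genes went both ways, and in the L35 family they did so among paralogues. AT2G39390 (L35) was at 467, 471 and 588 in Col and 767, 822 and 728 in C24 (adjusted p = 0.0183), while the signals of its paralogue AT3G55170 were 42.0, 45.9 and 76.4 in Col and 20.0, 19.3 and 26.2 in C24 (adjusted p = 0.0207). Neither pair of groups overlapped. The C24 signals of AT3G55170 were not far above the filter level, and its F1 signals were 64.9, 59.1 and 37.9. The other tested L35 genes were not called. Their log2 differences of C24 from Col were 0.10 ± 0.11 for AT3G09500 and -0.39 ± 0.13 for AT5G02610 (adjusted p = 0.673 and 0.116 in limma). AT2G37600 (L36) rose from 423 ± 81.9 in Col to 663 ± 45.8 in C24 (adjusted p = 0.0281), and AT1G74270 (L35a) from 519 ± 63.8 to 778 ± 89.2 (adjusted p = 0.0236). AT3G16780 (L19) was 1.76-fold lower (adjusted p = 0.0168). AT2G40010, a gene of the stalk protein P0, had signals of 147, 105 and 100.4 in Col, 10.5, 2.52 and 3.35 in C24 and 91.3, 79.8 and 75.1 in F1 (adjusted p = 0.000137 for C24 against Col and 0.000835 for F1 against C24). It was under the filter level on every C24 array. The array was designed on the Col genome, so for a signal that is low in C24 a mismatch with the probes and a lower transcript level cannot be told apart.

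In the 40S list AT3G57490 (S2) was 1.76-fold higher in C24 than in Col (adjusted p = 0.0248). AT5G28060 (S24) was higher in F1 than in C24, at 1006, 1026 and 972 against 661, 735 and 658 (adjusted p = 0.0327), with Col at 689.7, 769.8 and 822. Of 21 genes of ribosome assembly 6 were tested and of 9 regulators 2. Their medians were 0.12 and 0.05 for C24 against Col, and 0 were called in limma. At an unadjusted p under 0.05 there were 1 and 0, where 1759 of the 15922 tested probe sets were higher and 1688 lower. PYK10 of the root markers was higher in C24, at 1362 ± 427 against 279 ± 37.7 (adjusted p = 0.000241), while the other 3 named root markers had lower means there.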

How the data were processed

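The authors deposited 1 intensity per probe set and array on a linear scale, from 0.0104 to 9775. The submitters' processing notes name GCOS, with version and settings not given in the sources used here. Each deposited array had the same mean after leaving out 2% at each end. The 64 control probe sets were set aside, and the other 22746 went through quantile normalization (limma 3.58.1, R 4.3.3) and were set to at least 1 and put on the log2 scale. Probe sets under the 30th percentile of mean log2 signal, a signal of 11.1, were left out. A limma fit with a variance trend and a mean per group gave all comparisons, with the variance of the mid-parent value by the delta method. The platform annotation named 1 gene for 13513 probe sets, several for 503 and none for 8730, with loci of the TAIR10.1 assembly. It gives few protein names, so family names are general knowledge.

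Values on every array are given for genes called in any comparison, for the 5 highest and lowest non-overlapping differences between the parents, for pairs of paralogues whose ratio did not overlap and moved by at least 0.5, for genes with published mutants, and for the 3 highest and lowest F1 values with all F1 arrays on 1 side of the mid-parent value. AT1G18540, AT1G67430, AT3G07110, AT3G09500, AT4G29410 and AT5G02610 were named after their values were seen. Members, lists and this rule were chosen with earlier results of these data known. The fit was tested on simulated data, with changes put into probe sets of above-median signal. For C24 against Col it recovered 0 of 50 changes of 1.25-fold and 5 of 50 of 1.5-fold. For F1 against the mid-parent value it recovered 1 of 50 and 15 of 50. The changed probe sets were not matched in signal to the 29 genes. For C24 against Col they were also fewer than those called in the data, so these rates are not the power for these genes. The absence of a call for a small difference therefore does not show that groups are equal. Deviations of arrays with the same replicate number correlated at 0.46 to 0.49 for number 1, 0.01 to 0.15 for number 2 and 0.12 to 0.20 for number 3. Arrays of number 1 thus shared deviations across the groups, which the main fit does not take up. Across the groups, arrays of number 1 correlated at -0.35 to -0.10 with those of numbers 2 and 3. Those of number 2 and of number 3 correlated with each other at 0.08 to 0.20. As numbers 2 and 3 correlated little with their own number, the numbers were not taken to pair samples. This does not remove the deviation shared by number 1, and a fit with the number as a block was run as an alternative.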

Additional observations from a re-analysis of the deposited data

How the results depend on the processing

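The limits of these results are the small differences and the 3 arrays per group. Of the 3 genes called higher in C24 than in Col, 1 was called with the deposited scaling, 1 with a common median and 0 with no variance trend, and 0 to 2 with 1 array left out. With no low-signal filter AT2G20450 and AT2G27530 were called, at adjusted p of 0.0232 and 0.0415 in limma. With the replicate number as a replicate block 2 were called, AT3G24830 losing its call (adjusted p = 0.0639), and the other member counts stayed at 0 under every alternative run. The median difference of the members from Col moved from 0.17 in C24 to 0.27 with the deposited scaling and 0.41 with a common median, and that of F1 from C24 moved from -0.10 to -0.25 and -0.38. Against the mid-parent value it moved from -0.02 to -0.12 and -0.19. Leaving out Col replicate 2 or F1 replicate 3 under these scalings was chosen after seeing the data. With a common median it gave 0.32 for C24 against Col and -0.23 for F1 against C24.

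Some small differences changed sign. AT4G27090 in C24 against Col went from -0.09 to 0.030 with the deposited scaling and 0.17 with a common median, and AT3G53430 in F1 against the mid-parent value from 0.15 to -0.0013 and -0.072. Leaving out 1 array took the C24 difference of AT5G48760 to -0.016 at lowest and 0.16 at highest, that of AT2G37190 to -0.0097 and 0.44, and that of AT1G27400 to -0.037 and 0.38. The cause was not tested.

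Over all tested probe sets the calls for C24 against Col were 567 higher and 781 lower, 377 higher with the filter at the 50th percentile, and 288 to 549 and 485 to 771 with 1 array left out. Against Col 65 were higher and 16 lower in F1, 43 higher with that filter, 32 lower with the replicate block, and 30 to 61 and 6 to 20 with 1 array left out. Against C24 271 were higher and 60 lower, with 100 lower for a common median, 28 for the filter, 97 for the block, and 145 to 265 and 21 to 75 with 1 array left out. Against the mid-parent value 1 was higher and 5 lower. These were 3 lower with the deposited scaling, 3 and 0 with no filter, 1 lower with the filter at the 50th percentile, 0 and 0 with the block, 33 and 1 with a mid-parent value taken on the log2 scale, and 0 to 1 and 0 to 4 with 1 array left out. As each member had 1 probe set, the mean over probe sets was not run.

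All arrays of number 1 correlated best with their own number in both other groups, and 0 of those of numbers 2 and 3 did so in both.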
